A study of Mus musculus with 72 samples.

Results

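The 23 lung tumors collected 7 months after NNK exposure were ranked by the level of Mki67. The classes were chosen by that measured value alone: the 8 tumors of highest Mki67 (Mki67-high) were compared with the 8 of lowest (Mki67-low), 16 of the 72 libraries of the study. Every animal was Gprc5a-/-, without a receptor that lung epithelial cells normally make, and was NNK exposed, NNK being a nitrosamine of tobacco smoke. All 23 tumors were needle-dissected at 44 weeks of age, and RNA was counted with AmpliSeq, a panel of targeted amplicons, so that levels of different genes are not compared. The 8 Mki67-high tumors came from 5 animals and the 8 Mki67-low tumors from 6, and all 16 carried ADN in their titles, a term that the labels do not define. Reference values came from the other 7 tumors of that age, from normal-appearing lung of 10 animals at 7 months, and from 10 tumors taken at the end of exposure at 16 weeks of age (4) or 3 months later at 28 weeks (6). Gprc5a had 0 to 3 counts in the 16 libraries and was at 0 in 6 of them.

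Mki67 encodes the Ki-67 protein, which coats chromosomes in mitosis and is made in cycling cells, so that its level is widely used as an index of how many cells of a tumor divide. Transcription of such genes comes in waves. E2F factors drive replication genes at the G1/S boundary, and the MuvB complex, with B-Myb and Foxm1, drives mitotic genes in G2/M through promoter elements called CHR and CCAAT boxes. In alveolar tumors of the mouse, cells that resemble alveolar type 2 cells make up most of the lesion.

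The promoters of 4 genes are shown because Mki67 made the classes, Plk1 separated them without having been used, and Top2a and Cdk1 did not separate them. Each runs from 250 bases before the RefSeq start to 50 after it on GRCm38.p6, 5′ to 3′ on the gene's own strand. The lines cover chr7:135716330-135716629 (minus strand) for Mki67, chr7:122159185-122159484 (plus) for Plk1, chr11:99024140-99024439 (minus) for Top2a and chr10:69352863-69353162 (minus) for Cdk1. Capitals mark TTTGAA (CHR), CCAAT, or the E2F words TTTGGCGC and TTTCGCGC, on either strand.
Mki67: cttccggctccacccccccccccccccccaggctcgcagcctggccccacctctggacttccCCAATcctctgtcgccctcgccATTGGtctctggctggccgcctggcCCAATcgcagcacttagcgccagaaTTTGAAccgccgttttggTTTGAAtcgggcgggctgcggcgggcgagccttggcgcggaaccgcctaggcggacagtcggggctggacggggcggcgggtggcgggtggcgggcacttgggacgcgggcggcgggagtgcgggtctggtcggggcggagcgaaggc
Plk1: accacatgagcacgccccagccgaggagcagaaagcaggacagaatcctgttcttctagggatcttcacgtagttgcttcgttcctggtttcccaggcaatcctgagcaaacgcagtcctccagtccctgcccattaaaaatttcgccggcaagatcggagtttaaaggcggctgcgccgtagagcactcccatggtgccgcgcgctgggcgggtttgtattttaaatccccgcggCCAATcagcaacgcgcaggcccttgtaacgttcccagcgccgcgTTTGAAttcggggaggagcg
Top2a: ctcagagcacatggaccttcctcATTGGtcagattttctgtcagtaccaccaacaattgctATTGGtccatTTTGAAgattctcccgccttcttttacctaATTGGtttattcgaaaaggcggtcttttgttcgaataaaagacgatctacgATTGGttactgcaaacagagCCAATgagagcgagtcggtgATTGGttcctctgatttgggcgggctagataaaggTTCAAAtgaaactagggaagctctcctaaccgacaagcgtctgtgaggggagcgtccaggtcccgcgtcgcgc
Cdk1: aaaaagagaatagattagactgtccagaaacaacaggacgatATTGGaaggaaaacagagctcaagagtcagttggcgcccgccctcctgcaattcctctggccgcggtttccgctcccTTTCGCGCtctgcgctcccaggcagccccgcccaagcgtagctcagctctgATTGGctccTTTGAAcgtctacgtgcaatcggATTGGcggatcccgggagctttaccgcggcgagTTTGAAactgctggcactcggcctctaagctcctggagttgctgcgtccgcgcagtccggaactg
All 4 promoters held both CHR and CCAAT, and only Cdk1 among them held an E2F word, so these letters did not set Plk1 apart from Top2a. Of the 288 cell cycle genes listed here, 222 matched the table with 253 promoters. CHR stood in 37.5% of these promoters, against 17.9% of all 32851 promoters in the table. CCAAT stood in 60.1%, against 37.4% of all. An E2F word stood in 11.1%, against 0.813% of all. CHR was in 52.7% of promoters of the mitosis and kinetochore list and in 15.1% of those of the DNA replication list. A match is a description of these letters and not evidence of binding.

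The classes were made by Mki67 itself, so its values are given with no test. In the Mki67-high tumors the level ran from 43.3 to 275 CPM (counts scaled to the library's total) with a median of 51.1 CPM, against 10.3 to 28.2 CPM with a median of 21.85 CPM in the Mki67-low tumors. At the edges of the classes the steps were small. The lowest Mki67-high tumor had 43.3 CPM, and the next one outside the class 43.2 CPM, while the highest Mki67-low tumor had 28.2 CPM, and the next one outside 28.6 CPM. Normal-appearing lungs of the same age lay between 3.49 and 22.4 CPM, and 4 of the 8 Mki67-low tumors lay within that range.

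The classes were not evenly spread over animals. Of the Mki67-high tumors, 7 came from animals whose names start with M and 1 from an animal with F, whereas of the Mki67-low tumors 2 came from M animals and 6 from F animals. Xist, transcribed from the inactive X chromosome, was at 1123 to 5507 CPM in the 7 F libraries and at most 0.612 CPM in the 9 M libraries, and Y-linked Ddx3y was at 0 in the F libraries and at 69.0 to 152 CPM in the M libraries. Animal M7035 gave 4 Mki67-high tumors and 1 Mki67-low tumor, and animals M7033 and F1768 gave 1 of each. Only these 3 of 8 animals held both classes, so class, letter and animal can be told apart only in part. Library totals were 15527984 to 18242403 counts in the Mki67-high class and 12711975 to 18922806 in the Mki67-low class. The 50 most abundant genes took 17.4 to 29.1% of the counts in Mki67-high tumors and 21.03 to 39.1% in Mki67-low tumors.

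The Mki67-high tumor of animal F1768, replicate 8, stood apart from the other 7 of its class. It had 275 CPM of Mki67, while the other 7 ran from 43.3 to 62.8 CPM. It was rich in lymphocyte transcripts. Ms4a1, the B cell antigen CD20, was at 304 CPM in it and at 0.767 to 2.34 CPM in the other 7 Mki67-high tumors. Cd3e, a chain of the T cell receptor complex, was at 396 CPM against at most 40.8 CPM in the other 7. It was low in Epcam, an epithelial adhesion molecule, at 73.0 CPM, and in Nkx2-1, the lung lineage factor, at 4.39 CPM. Of 69 called genes followed below, 68 were called in the same direction without this library, the exception being Cxcl9. Values without it are given for some of these genes only, so a change given alone may also have moved.

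**Figure D1:**
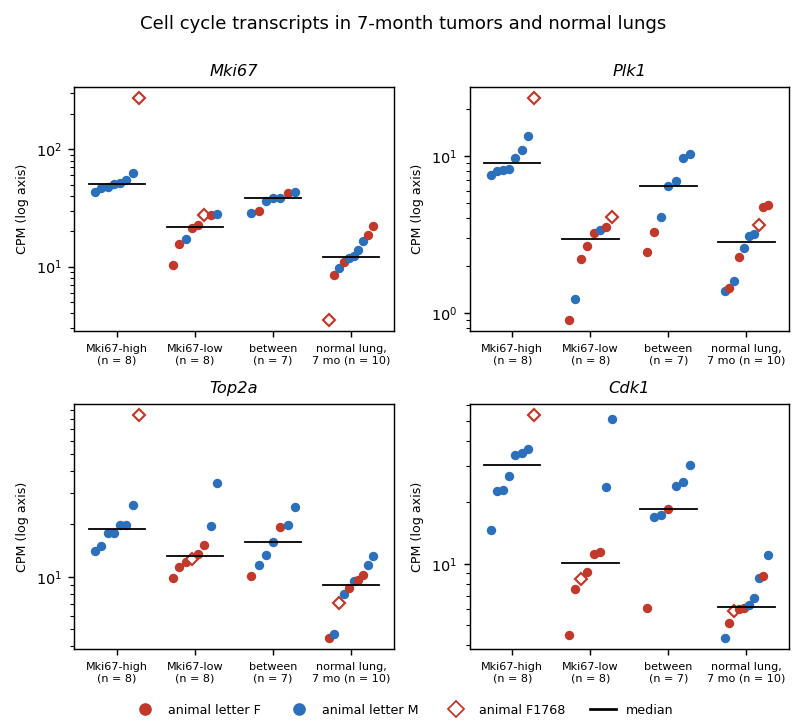
CPM on a log axis of Mki67, Plk1, Top2a and Cdk1 in each of 8 Mki67-high, 8 Mki67-low and 7 intermediate tumors and 10 normal lungs at 7 months; points are libraries, colors are animal letters, open diamonds are animal F1768 and bars are medians. Plk1 separated the classes, at 7.57 CPM or more in Mki67-high and 4.06 CPM or less in Mki67-low tumors, while Top2a and Cdk1 overlapped.

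Cell cycle genes were set apart because the choice of classes favours them. They are described with no test. Among the G2/M regulators, Plk1, the kinase of mitotic entry and spindle assembly, ran from 7.57 to 23.5 CPM in Mki67-high tumors with a median of 8.98 CPM, against 0.898 to 4.06 CPM with a median of 2.94 CPM in Mki67-low tumors. The classes did not overlap, with or without replicate 8. Ccna2, the cyclin of S and G2 phase, had 14.2, 22.98 and 85.5 CPM (lowest, median and highest) in Mki67-high tumors and 4.64, 9.99 and 22.8 CPM in Mki67-low tumors, and the classes overlapped.

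Several standard proliferation genes overlapped between the classes. Top2a, the topoisomerase that untangles replicated DNA, had 14.1, 18.7 and 83.7 CPM (lowest, median and highest) in Mki67-high tumors and 9.83, 13.1 and 34.1 CPM in Mki67-low tumors. Without replicate 8 the highest Mki67-high tumor had 25.7 CPM, less than the 34.1 CPM of the Mki67-low tumor of animal M7035. That same low tumor had 51.2 CPM of Cdk1, the mitotic kinase, against 14.7 to 36.3 CPM in the Mki67-high tumors other than replicate 8. Birc5, survivin of the chromosomal passenger complex, had nearly equal medians, 24.7 CPM in Mki67-high and 24.1 CPM in Mki67-low tumors. Aurkb, the kinase of that complex, had medians of 9.84 and 7.62 CPM in Mki67-high and Mki67-low tumors.

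E2f1, a driver of S phase entry, had a median of 15.5 CPM in Mki67-high and 9.64 CPM in Mki67-low tumors, and Foxm1, the mitotic forkhead factor, 3.88 and 2.21 CPM. The replicative helicase subunit Mcm2 had medians of 13.6 and 9.73 CPM in the Mki67-high and Mki67-low tumors, and Mcm5 of 14.3 and 14.03 CPM. Ccne1, the cyclin of S phase entry, had 1.81 CPM in Mki67-high and 0.374 CPM in Mki67-low tumors, and Mybl2, B-Myb itself, 11.1 and 9.07 CPM. Rrm2, the small subunit of ribonucleotide reductase, ran from 0.0616 to 51.0 CPM in Mki67-high and from 0 to 9.20 CPM in Mki67-low tumors. It was split by animal more than by class. Every tumor and normal lung of F7021, F1765, M7033 and M7046 at 7 months had 0.184 CPM of Rrm2 or less. All other libraries of that age had 2.04 CPM or more. Ccnb1 and Pcna were not analysed here.

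Over the 277 cell cycle genes fitted, the median log2 fold change (Mki67-high minus Mki67-low) was 0.48 and 212 were positive, beside a median of -0.09 over the 12891 other genes. Without replicate 8 the median was 0.23 and 180 of 277 were positive. With the animal letter as a covariate as well, it was 0.06, with 147 of 277 positive. Replicate 8 is the only Mki67-high tumor of an F animal. Without it, the contrast with the letter rests on 7 Mki67-high and only 2 Mki67-low tumors, all of M animals. The same holds wherever this fit is given below. By role, in that last fit, the median was 0.17 for 74 cell cycle regulators, -0.25 for 100 mitosis and kinetochore genes and 0.16 for 104 replication genes. The classes overlapped in 256 of the 277 genes, and in 254 without replicate 8. The 277 include Mki67, which could not overlap because it chose the classes. The share of the other genes in which the classes overlapped was not counted, so these counts are only a description. The tumors are named below by the value that chose them, Mki67-high and Mki67-low, and not as fast and slow cycling.

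Outside the cell cycle lists, 3961 of 12891 genes passed an adjusted p of 0.05 between the classes in edgeR's quasi-likelihood test, 1961 higher (15.2%) and 2000 lower (15.5%) in the Mki67-high tumors. These percentages are the background for the counts of genes below that come from this fit. Counts from other fits are to be read against the percentages given for those fits. Without replicate 8, 17.2% of 12923 genes were higher and 19.6%, or 2537 genes, were lower, and 3730 of the 3961 genes were called the same way. When libraries were scaled by total counts alone, the split was 1776 higher and 1048 lower, and the median over these genes was 0.03 in place of -0.09. Tumors of an animal share a host, so p-values over tumors can be too small.

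The calls depended on how animals were treated. With the animal as a block, which draws on the 3 animals that held both classes, 7 genes were higher (0.0543%) and 1 was lower (0.00776%). With the block and without replicate 8, 1381 were higher (10.7%) and 680 lower (5.26%). In that fit only M7035 and M7033 held both classes, each with 1 Mki67-low tumor. With the animal letter as a covariate and without replicate 8, 951 were higher (7.36%) and 543 lower (4.2%). That contrast rests on the 7 Mki67-high and 2 Mki67-low tumors of M animals. A set of 950 genes was called in the same direction in 4 fits, those of all 16 tumors, without replicate 8, without it with the letter and without it with the block, 701 of them higher and 249 lower in Mki67-high tumors. The fits without replicate 8 with the letter and with the block were added after the data were seen. The 4 fits share most of their tumors and are not separate tests. The block fit of all 16 tumors, which called 8 genes, is not among them. Without animal M7035, which gave 4 of the 8 Mki67-high tumors, 1146 genes were called.

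**Figure D2:**
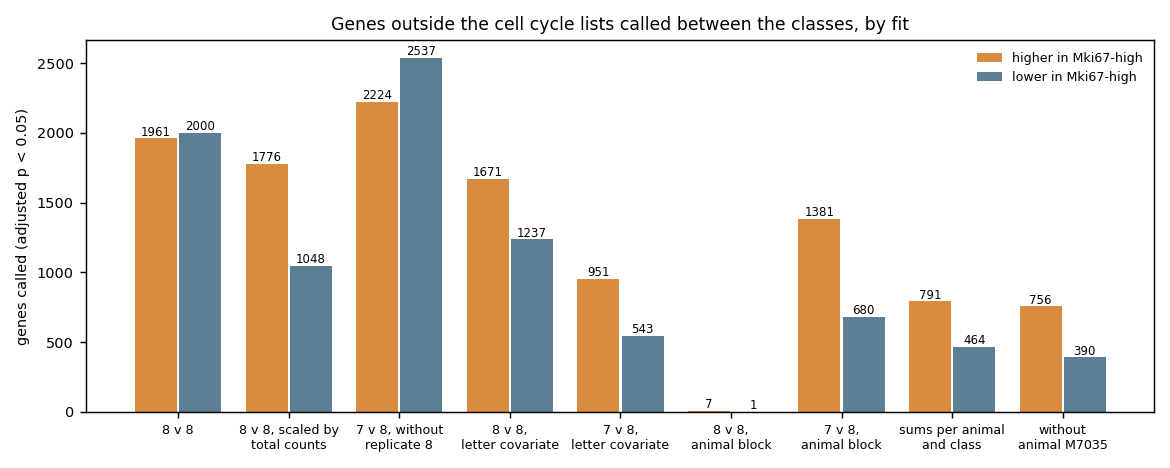
Number of genes outside the cell cycle lists called at an adjusted p under 0.05 (vertical axis) in 9 fits of Mki67-high against Mki67-low tumors; orange bars are genes higher and blue bars genes lower in Mki67-high tumors. The fit of 8 against 8 called 1961 and 2000 genes, and the same fit with an animal block 7 and 1.

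The 12 largest rises included Tor1a, Dynll2, Med28 and Rbm7, which separated the classes, and Igtp, Ifi203 and Cxcl9, which are induced by interferon. Tor1a, torsin A of the endoplasmic reticulum and nuclear envelope, had 29.9, 38.4 and 64.6 CPM (lowest, median and highest) in Mki67-high tumors, against 0.36, 1.52 and 23.03 CPM in Mki67-low tumors. The highest Mki67-low value was again that of animal F1768, and the other 7 were at 3.85 CPM or less, so the classes did not overlap. The log2 fold change was 3.44 ± 0.62 (SE, adjusted p 0.00111) and 3.42 without replicate 8. Dynll2, a dynein light chain, had 88.6, 152 and 261 CPM in Mki67-high and 3.86, 7.58 and 65.3 CPM in Mki67-low tumors, again without overlap (log2 fold change 3.34 ± 0.50, adjusted p 0.000342).

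The same separation was seen in Med28, a Mediator subunit, with a log2 fold change of 3.42 ± 0.50, in Ppid, cyclophilin 40, with 3.43 ± 0.59, in Mrto4, a ribosome assembly factor, with 3.37 ± 0.49, and in Rbm7, a cofactor of the nuclear exosome, with 3.34 ± 0.49. Serpinb8, an intracellular protease inhibitor, had 3.31 ± 0.59. Vwa1, a matrix protein, had 3.26 ± 0.55 and overlapped by a single pair of values, 5.86 CPM in the lowest Mki67-high and 5.87 CPM in the highest Mki67-low tumor. Of the 12 largest rises, 7 had no overlap of the classes and 8 had none without replicate 8. They were chosen by their change between these same tumors, which favours separation. How many of all genes tested separate the classes was not counted, so separation is only a description here and below.

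These genes also varied widely among normal-appearing lungs. Tor1a ran from 1.83 to 76.0 CPM over the 10 normal lungs at 7 months, Ppid from 0.814 to 66.2 CPM and Med28 from 1.56 to 73.7 CPM. In all 12 of the largest rises the highest normal lung was more than 5 times the lowest. In animal M7046 the Mki67-high tumor had the highest Tor1a of its class, 64.6 CPM, while the normal lung had the lowest of the 10, 1.83 CPM. Whether a property of the libraries sets these levels was not tested.

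The interferon-induced genes among the largest rises were low in level outside replicate 8. Igtp, an interferon-inducible GTPase, had 2.90, 5.90 and 87.7 CPM (lowest, median and highest) in Mki67-high and 0, 0.131 and 3.16 CPM in Mki67-low tumors, with a log2 fold change of 4.72 ± 0.95 (adjusted p 0.00207) that was 3.46 without replicate 8. Ifi203, a nuclear protein of the interferon-inducible Pyhin family, had 3.67, 5.10 and 57.3 CPM in Mki67-high and 0.0528, 0.168 and 4.32 CPM in Mki67-low tumors. Its log2 fold change was 3.93 ± 0.87 (adjusted p 0.00383), and 2.89 without replicate 8. Both overlapped between the classes by the F1768 tumor of the low class. Cxcl9, a chemokine that draws T cells, had 649.6 CPM in replicate 8 and at most 30.9 CPM in the other 7, and its log2 fold change of 4.26 ± 1.29 (adjusted p 0.0204) was 1.33 with an adjusted p of 0.206 without that tumor. Kng2, a kininogen, ran from 0.563 to 672 CPM in Mki67-high and from 0.0675 to 74.3 CPM in Mki67-low tumors (4.23 ± 1.40, adjusted p 0.0301), and its call was lost on leaving out any of 5 single tumors.

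The largest falls were led by the Dlk1-Dio3 imprinted region of chromosome 12 and by genes with separate levels by animal. Meg3, a maternally expressed noncoding RNA at chr12:109541001-109571726 of GRCm38, had 5.30, 19.6 and 462 CPM (lowest, median and highest) in Mki67-high tumors, against 4.32, 2209.9 and 7290.3 CPM in Mki67-low tumors. In the 6 Mki67-low tumors of F animals it lay at 507 CPM or more, and in the 2 of M animals at 394 and 4.32 CPM, so the classes overlapped. The log2 fold change was -4.25 ± 1.201 (adjusted p 0.0142), and -0.58 with an adjusted p of 0.826 without replicate 8 and with the letter as a covariate. Its neighbours on that chromosome fell with it: Rtl1, a paternally expressed gene derived from a retrotransposon, by 4.49 ± 1.01, and the noncoding RNAs Rian by 3.85 ± 1.12 and Mirg by 5.18 ± 1.06 on the log2 scale. In the 10 normal lungs Meg3 ran from 42.9 to 179 CPM.

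Elk3, an ETS transcription factor, was split by animal more than by class. It had 0.946 to 5.41 CPM in Mki67-high tumors with a median of 1.75 CPM, and 1.80 to 95.6 CPM in Mki67-low tumors with a median of 45.1 CPM. The 4 Mki67-low tumors of F7020 and F7021 had 86.1 to 95.6 CPM, and the other 4 had 1.80 to 4.06 CPM. The normal lungs of F7020 and F7021 had 60.7 and 71.5 CPM, and the other 8 normal lungs 1.18 to 3.51 CPM. Its log2 fold change of -4.48 ± 0.87 (adjusted p 0.00179) was -0.41 (adjusted p 0.817) without replicate 8 and with the letter as a covariate. P2ry2, a receptor of extracellular ATP and UTP, ran from 0 to 12.7 CPM in Mki67-high and from 0.153 to 84.2 CPM in Mki67-low tumors (-4.27 ± 1.17, adjusted p 0.0121). It too was split by animal. M7033 had 12.7 and 10.2 CPM in its tumors and 7.36 CPM in its normal lung. Tumors and normal lungs of the other M animals at 7 months had 0.390 CPM or less, and normal lungs of F animals 12.5 CPM or more.

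The other falls named by size were Fstl4, a follistatin-like protein (-4.01 ± 1.07), 1700007K13Rik (-3.85 ± 1.04), AY761185 (-3.75 ± 0.66), 6430411K18Rik (-3.72 ± 0.99), Rsph4a, a radial spoke protein of motile cilia (-3.62 ± 1.21), and Cckar, the cholecystokinin A receptor (-3.36 ± 0.91). Cckar had 0.241, 9.11 and 28.7 CPM (lowest, median and highest) in Mki67-high tumors and 5.85, 29.3 and 327 CPM in Mki67-low tumors, while the 10 normal lungs had 101 to 657 CPM. None of the 12 falls was free of overlap between the classes. Without replicate 8, all 12 were called again, but with the letter as a covariate as well only AY761185 and Cckar were, against 10 of the 12 rises.

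**Figure D3:**
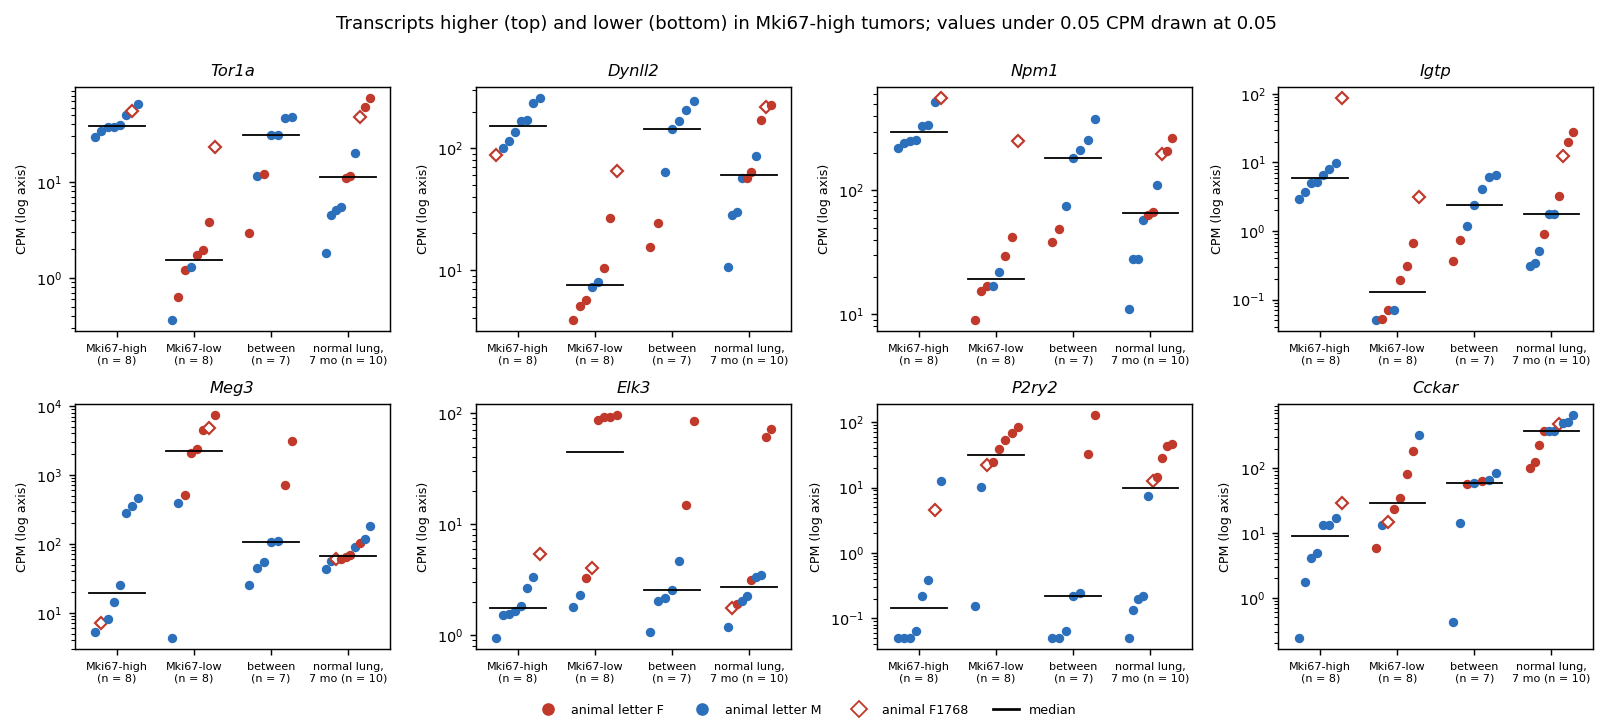
CPM on a log axis of 4 genes higher (Tor1a, Dynll2, Npm1, Igtp) and 4 lower (Meg3, Elk3, P2ry2, Cckar) in Mki67-high tumors, for the same libraries and with the same marks as in the plot of cell cycle transcripts. Tor1a and Dynll2 separated the classes, Npm1 and Igtp did so but for the F1768 tumor of the low class, and Elk3 was at 60.7 CPM or more only in tumors and normal lungs of animals F7020 and F7021.

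Glycolysis, nucleotide and ribosome biogenesis genes gave more rises than falls in Mki67-high tumors, and fewer rises without replicate 8 and with the letter as a covariate. Changes given with ± are log2 fold changes with their SE, and every gene said to rise or fall had an adjusted p under 0.05. Of 19 glycolysis and hypoxia genes tested, 7 rose and none fell, with a median log2 fold change of 0.48. Without replicate 8 and with the letter as a covariate 2 rose and 1 fell. Tpi1, triosephosphate isomerase, had 113, 279 and 342 CPM (lowest, median and highest) in Mki67-high tumors, against 64.2, 108 and 117 CPM in Mki67-low tumors. Only replicate 8 lay within the range of the low class. The log2 fold change was 1.198 ± 0.25 (adjusted p 0.00266). Hk1, which phosphorylates glucose, rose by 0.84 ± 0.17 without overlap of the classes, 63.5 CPM or more in Mki67-high against 47.8 CPM or less in Mki67-low tumors. Ankrd37, a hypoxia-induced gene, rose by 1.67 ± 0.37.

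Of 19 genes of nucleotide, one-carbon and serine metabolism, 6 rose and 1 fell (median 0.47). Umps, which makes UMP, rose by 1.30 ± 0.22 without overlap, at 20.6 CPM or more in Mki67-high and 14.7 CPM or less in Mki67-low tumors, and Gart, of purine synthesis, rose by 0.58 ± 0.17. Impdh1, the isoform of IMP dehydrogenase used outside proliferating cells, fell by 0.96 ± 0.21. Without replicate 8 and with the letter as a covariate none of the 19 was called.

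Of 25 Myc and ribosome biogenesis genes, 10 rose and 1 fell, but the median was 0.01. Without replicate 8 and with the letter 6 rose and 1 fell. Npm1, nucleophosmin, had 221, 295 and 564 CPM (lowest, median and highest) in Mki67-high tumors and 8.88, 19.3 and 250.4 CPM in Mki67-low tumors, of which 7 were at 42.1 CPM or less (log2 fold change 2.79 ± 0.54, adjusted p 0.00179). Like the largest rises, Npm1 also varied widely among normal lungs at 7 months, from 11.1 to 266 CPM. Wdr12, of ribosome assembly, rose by 1.36 ± 0.23 and Hspe1, a mitochondrial chaperonin, by 1.02 ± 0.19. Myc itself had 42.0, 53.4 and 104 CPM in Mki67-high and 10.9, 15.6 and 59.9 CPM in Mki67-low tumors (1.36 ± 0.30, adjusted p 0.00343), and overlapped only by the F1768 tumor of the low class.

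Of 19 genes of cholesterol and fatty acid synthesis, 3 rose and none fell (median 0.25), close to the 15.2% of all genes that rose, and none was called without replicate 8 and with the letter. Among them were Acaca, the first enzyme of fatty acid synthesis (1.51 ± 0.32), and Hmgcs1, of the mevalonate pathway (1.08 ± 0.26). Of 16 genes of the integrated and endoplasmic reticulum stress responses, 4 rose and 1 fell, among them the protein disulfide isomerase Pdia4 (1.38 ± 0.28) and the mTORC1 inhibitor Ddit4 (1.60 ± 0.33). Of 13 Nrf2 targets, 3 rose and 1 fell, with G6pdx, which supplies NADPH, at 2.03 ± 0.48 and the carbonyl reductase Cbr3 at 1.97 ± 0.44. Ier2, an immediate early gene, had 44.0 to 102 CPM in Mki67-high and 1.96 to 44.6 CPM in Mki67-low tumors, overlapping only between the F1768 tumors, and rose by 2.26 ± 0.37, the only rise among 13 immediate early and heat shock genes, of which 1 fell. Among normal lungs at 7 months Ier2 ran from 13.4 to 145 CPM and G6pdx from 5.09 to 41.1 CPM.

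Markers of the tumor epithelium moved in both directions. Sftpc, surfactant protein C of alveolar type 2 cells, had 5774, 20949 and 29208 CPM (lowest, median and highest) in Mki67-high tumors and 17025, 45946 and 67441 CPM in Mki67-low tumors. The lowest value was replicate 8, and the classes overlapped. It fell by 1.43 ± 0.43 on the log2 scale (adjusted p 0.0194), and by 1.23 without replicate 8. In a bulk sample, fewer cells of a type and less RNA per cell cannot be told apart. Nkx2-1, the lineage factor of lung epithelium, was higher: it had 44.0 to 88.6 CPM in the 7 Mki67-high tumors other than replicate 8, which had 4.39 CPM, against 8.19 to 27.6 CPM in Mki67-low tumors (1.57 ± 0.41, adjusted p 0.00894; 1.79 without replicate 8).

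Of 18 alveolar type 2 genes, 3 rose and 1 fell, with a median log2 fold change of 0.01. The mucin Muc1 had 81.3, 358 and 540 CPM (lowest, median and highest) in Mki67-high tumors and 17.97, 50.1 and 299 CPM in Mki67-low tumors (2.12 ± 0.45), and Ppp1r14c, a phosphatase inhibitor, rose by 2.09 ± 0.44. Sdc1, the proteoglycan syndecan 1 of epithelia and plasma cells, rose by 1.36 ± 0.37. It had 703 CPM or more in all Mki67-high tumors but replicate 8, at 122 CPM, and at most 682 CPM in the low class. Of 13 alveolar type 1 genes, 2 rose and 4 fell (median -0.72).

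Some airway genes fell in Mki67-high tumors. Of 13 club and secretory genes none rose and 4 fell (median -1.40), and of 14 ciliated genes none rose and 4 fell (median -2.07). Gsta3, a club cell glutathione transferase, had 34.3 to 78.4 CPM in Mki67-high and 58.9 to 166 CPM in Mki67-low tumors (-1.41 ± 0.24, adjusted p 0.000743), and the aldehyde dehydrogenase Aldh1a1 fell by 1.88 ± 0.51. Tppp3, of ciliary microtubules, fell by 1.65 ± 0.37 and Dynlrb2, a dynein subunit, by 2.35 ± 0.63. Normal lungs lay above both classes for Gsta3 and Tppp3, with Gsta3 at 248 to 529 CPM and Tppp3 at 726 to 1614.0 CPM. Summed over the ciliated list, the level was 306 to 516 CPM in Mki67-high tumors, 253 to 1491 CPM in Mki67-low tumors and 2521 to 6832 CPM in normal lungs, and the part of adjoining airway in the dissected pieces was not tested. Without replicate 8 and with the letter as a covariate, 2 of the club and 1 of the ciliated genes fell. Scgb1a1, the main club cell product, ran from 34.1 to 8358 CPM in Mki67-high and from 74.1 to 32540.3 CPM in Mki67-low tumors and did not pass the test (-2.31 ± 1.12, adjusted p 0.125).

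**Figure D4:**
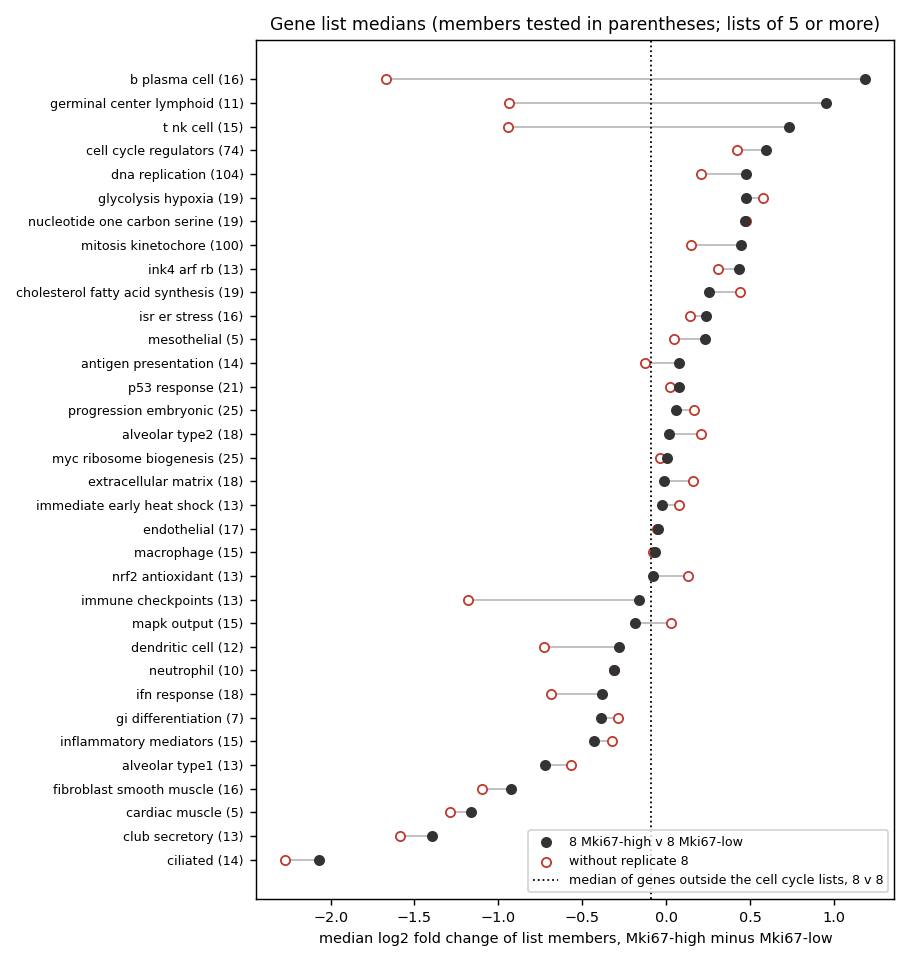
Median log2 fold change, Mki67-high minus Mki67-low (horizontal axis), of each gene list with at least 5 members tested; filled points are 8 against 8 tumors, open points leave out replicate 8, and the dotted line is the median of -0.09 over genes outside the cell cycle lists. The B and plasma cell list moved to -1.67 without replicate 8, against 1.19 with it, while the ciliated list stayed below -2.

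Some stromal genes fell. Of 16 fibroblast and smooth muscle genes none rose and 6 fell (median -0.93). Pdgfra, a receptor of alveolar fibroblasts, had 50.7, 63.6 and 79.5 CPM (lowest, median and highest) in Mki67-high tumors and 74.4, 111 and 275 CPM in Mki67-low tumors (-1.17 ± 0.24, adjusted p 0.00206). Inmt, a methyltransferase of lung stroma, fell by 1.45 ± 0.37 and the smooth muscle actin Acta2 by 1.53 ± 0.43. Without replicate 8 and with the letter as a covariate none of the 16 was called. Of 18 matrix genes 3 rose and 2 fell, and none rose and 2 fell without replicate 8 and with the letter. Lox, which crosslinks collagen, had 18.5 to 39.8 CPM in Mki67-high and 40.3 to 104 CPM in Mki67-low tumors, without overlap (-1.54 ± 0.28, adjusted p 0.000958). Of 17 endothelial genes 1 rose, the transcription factor Sox18 (1.91 ± 0.59), and 5 fell, among them the tight junction claudin Cldn5 (-1.30 ± 0.32), with a median of -0.05. None of the 17 was called without replicate 8 and with the letter, and the median was then 0.40. Without replicate 8 and with the block, 3 rose and none fell (median 0.48).

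H2-D1 was higher, and Cd74, Csf1 and Csf1r lower, in Mki67-high tumors. H2-D1, a classical class I molecule, had 2634.8, 3359.6 and 4569.9 CPM (lowest, median and highest) in Mki67-high tumors and 295, 591 and 1890.3 CPM in Mki67-low tumors, with no overlap of the classes (1.97 ± 0.33, adjusted p 0.000628). Normal lungs at 7 months had 732 to 2708 CPM of H2-D1. Cd74, the class II invariant chain, fell by 0.74 ± 0.27, a call lost on leaving out any of 12 single tumors. Of 14 antigen presentation genes these were the 2 calls, a smaller share than over all genes, and without replicate 8, 1 rose and 3 fell. Csf1, the macrophage growth factor, had 14.6 to 25.8 CPM in the Mki67-high tumors other than replicate 8, at 122 CPM, and 31.1 to 211 CPM in Mki67-low tumors (-1.50 ± 0.40; -2.02 without replicate 8). Its receptor Csf1r fell by 0.82 ± 0.17, and by 0.90 without replicate 8, when the classes did not overlap. Of 15 macrophage genes 1 rose and 2 fell, and of 15 inflammatory mediators 1 rose, the alarmin Il33 (1.26 ± 0.37), and 3 fell, including Il1a (-1.07 ± 0.25).

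Lymphocyte lists changed direction with replicate 8. Of 16 B and plasma cell genes 1 rose, Sdc1, and none fell, with a median of 1.19. Without replicate 8, 1 rose and 9 fell, with a median of -1.67. Summed over the list, replicate 8 had 11867 CPM, the other 7 Mki67-high tumors 827 to 1339 CPM and the Mki67-low tumors 301 to 2319 CPM. The T and NK cell list had a median of 0.73 with no calls, and -0.95 with 5 falls of 15 without replicate 8, and the germinal center list 0.95 and -0.94. With the letter as a covariate and without replicate 8, these medians were 0.56 and 0.26, and no gene of either list fell. Mybl1, a B-Myb relative of that list, rose by 2.32 ± 0.58, and by 1.16 without replicate 8. With the letter as a covariate and without replicate 8, the B and plasma cell median was 0.50, and 1 of the list rose and none fell. Ms4a1 was highest in the low class at 40.7 CPM in a tumor of F7020.

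Interferon response genes moved both ways. Of 18 tested, 4 rose and 2 fell (median -0.38). Gbp2, a guanylate-binding protein, rose by 3.06 ± 0.84, and by 1.78 without replicate 8, and the transcription factor Irf1 by 0.89 ± 0.26. Rsad2, the antiviral protein viperin, had 0.0644, 0.782 and 2.14 CPM (lowest, median and highest) in Mki67-high and 0.315, 4.64 and 8.99 CPM in Mki67-low tumors and fell by 2.65 ± 0.59 (adjusted p 0.00384). The 13 immune checkpoint genes had no call and a median of -0.16, but 7 falls and a median of -1.18 without replicate 8. With the letter as well, they had 1 fall and a median of -0.26. Of 10 neutrophil genes 1 rose and 1 fell, and of 12 dendritic cell genes 1 rose and 1 fell. Without replicate 8 the neutrophil list had 1 rise and 2 falls and the dendritic list no rise and 4 falls. In the interferon list without replicate 8, 2 of the 18 rose and 7 fell, and with the letter as a covariate as well none rose and 9 fell.

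**Figure D5:**
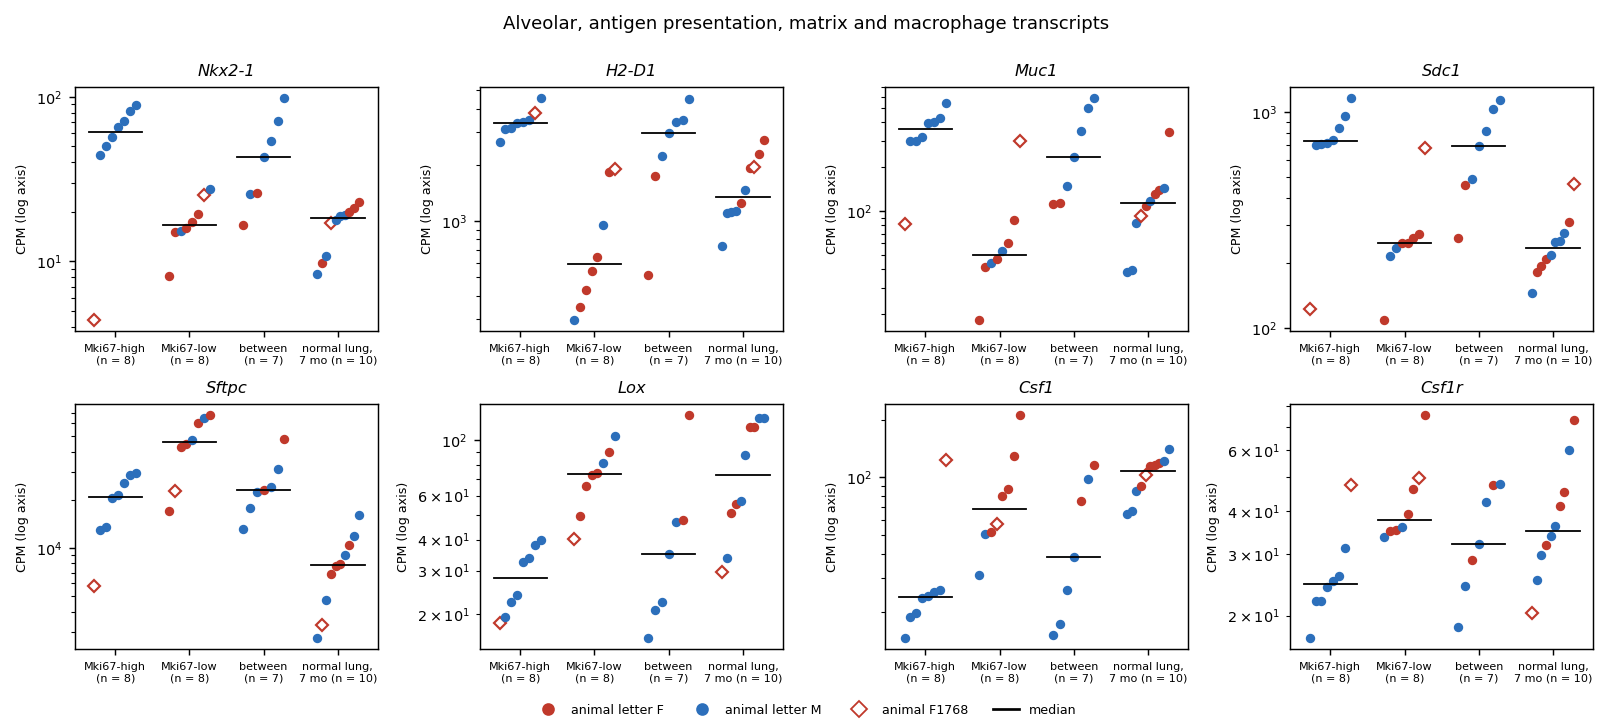
CPM on a log axis of Nkx2-1, H2-D1, Muc1, Sdc1, Sftpc, Lox, Csf1 and Csf1r in the same libraries and with the same marks as in the plot of cell cycle transcripts. H2-D1 was at 2634.8 CPM or more in every Mki67-high and at 1890.3 CPM or less in every Mki67-low tumor, and Lox was at 39.8 CPM or less in every Mki67-high and 40.3 CPM or more in every Mki67-low tumor.

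Of 13 Ink4, Arf and Rb pathway genes 1 rose and 1 fell, but 5 rose and 1 fell without replicate 8, and none was called with the letter as well. Of 15 genes of MAPK output 1 rose and 1 fell. Cdkn2a, which encodes the inhibitors p16 and p19Arf, had 9.29, 21.3 and 41.5 CPM (lowest, median and highest) in Mki67-high tumors and 0.793, 2.92 and 30.6 CPM in Mki67-low tumors. It did not pass the test (1.55 ± 0.64, adjusted p 0.072), but did without replicate 8 (1.69, adjusted p 0.0471). Cdkn1a, the p21 inhibitor, had medians of 254 CPM in Mki67-high and 98.2 CPM in Mki67-low tumors and did not pass (0.59 ± 0.45, adjusted p 0.333), and the highest value of all, 621 CPM, was in the F1768 tumor of the low class. Of 21 p53 response genes 3 rose and 2 fell, with the nuclease Aen at 0.90 ± 0.21, the stress protein Trp53inp1 at 1.78 ± 0.39 and the death receptor Fas at -1.13 ± 0.31. Trp53 itself had medians of 75.4 and 55.2 CPM in Mki67-high and Mki67-low tumors (0.44 ± 0.18, adjusted p 0.0743).

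Ccnd1, the G1 cyclin, had a median of 193 CPM in Mki67-high and 86.4 CPM in Mki67-low tumors (0.69 ± 0.32, adjusted p 0.11), and passed without replicate 8 (0.86, adjusted p 0.0186). The checkpoint ligand Cd274 was at 142 CPM in replicate 8 and changed by -0.53 ± 0.35 (adjusted p 0.26), and by -0.99 without it (adjusted p 0.00526). The EGF receptor ligand Areg (-0.19 ± 0.75, adjusted p 0.875) and the iron-binding lipocalin Lcn2 (-0.41 ± 0.46, adjusted p 0.525) did not pass in either fit. Of 7 gastrointestinal genes tested 2 rose and 1 fell, and of 25 genes of progression and embryonic programs 1 rose and 3 fell. Hnf4a, a gastrointestinal lineage factor, was too low to test, at no more than 0.548 CPM in Mki67-high tumors, and reached 13.4 CPM in the Mki67-low tumor of F1765.

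Within the animals that held both classes, values differed in how far they followed the classes. Of the 12 largest rises, every Mki67-high tumor lay above the Mki67-low tumor of its animal for 11 in M7035, 11 in M7033 and 10 in F1768. Of the 12 largest falls, every Mki67-high tumor lay below for 8 in M7035, 5 in M7033 and 8 in F1768. Both sets were chosen from a fit that held these tumors, so the counts are a description and no separate test. The share over all genes was not counted. In M7033, Meg3 was at 25.1 CPM in the Mki67-high and 4.32 CPM in the Mki67-low tumor, against the classes. In M7035, Tor1a was at 29.9 to 39.0 CPM in the 4 Mki67-high tumors and 1.30 CPM in the Mki67-low tumor, and H2-D1 at 3104.4 to 3374.2 CPM against 951 CPM. In M7033, Tor1a was at 50.7 CPM in the Mki67-high and 0.36 CPM in the Mki67-low tumor, and H2-D1 at 2634.8 and 295 CPM. In F1768, Tor1a was at 55.2 CPM in the Mki67-high and 23.03 CPM in the Mki67-low tumor, and Nkx2-1 at 4.39 and 25.2 CPM, against the direction of the other animals. Top2a went against the classes within both M animals. In M7035 it lay at 17.7 to 25.7 CPM in the Mki67-high tumors and at 34.1 CPM in the Mki67-low tumor, and in M7033 at 15.1 and 19.4 CPM. Of 69 called genes followed through every fit, all kept their sign with the animal block and 4 kept their call: Igtp (5.40, adjusted p 0.0451), Ifi203 (4.63, adjusted p 0.0334), Rbm7 (2.99, adjusted p 0.0334) and Rsad2 (-2.95, adjusted p 0.0446). For the others the adjusted p ran from 0.051 to 0.904 with the block.

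The 10 earlier tumors, which took no part in choosing the classes, give a separate measure. Their Mki67 level ran from 10.4 to 267 CPM, and each gene was fitted against log2 of the Mki67 CPM with the time group as a covariate. Outside the cell cycle lists 0 of 14205 genes passed (0%) in edgeR, and 792 had an unadjusted p under 0.05. limma-voom also called 0 genes, with 813 at an unadjusted p under 0.05. Of 282 cell cycle genes, 268 had a positive slope, with a median of 0.45 per doubling of Mki67, beside 0.01 over the other genes. The 1 called gene among them was Mki67 itself, by construction.

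For the proliferation genes that overlapped between the late classes, and for Plk1, the slopes in the earlier tumors were 0.45 ± 0.13 for Top2a, 0.46 ± 0.11 for Cdk1, 0.50 ± 0.15 for Plk1 and 0.67 ± 0.16 for Birc5, with adjusted p from 0.483 to 0.588, none past the threshold. Mitosis and kinetochore genes had a median slope of 0.55 and were positive in 98 of 102. The tumor with 267 CPM of Mki67, from the end of exposure, had 108 CPM of Top2a. Without it the median slope of cell cycle genes was 0.41. Of the 12 largest rises, 11 had a positive slope, and of the 12 largest falls 8 had a negative slope, none of them called. Tor1a had 0.88 ± 0.89, Npm1 0.73 ± 0.73, H2-D1 0.69 ± 0.51 and Myc 0.01 ± 0.21, with adjusted p from 0.882 to 0.998.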

How the data were processed

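Libraries were built with the Ion AmpliSeq mouse transcriptome assay and run on an Ion Proton, per the labels' protocols. The authors deposited a table of counts per gene, with 23930 genes and 74 columns. Of these, 2 columns matched no sample here and were not used. The aligner is not given in the sources used here, nor are the counter and the genome build. For 27 genes whose names had become dates, the names were restored. Each gene has its own amplicon target. Every sample's group came from its title and source.

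The deposited counts were tested with edgeR 4.0.16 (R 4.3.3): low counts filtered with filterByExpr, TMM scaling, quasi-likelihood test, Benjamini-Hochberg adjustment over all genes tested and a threshold of 0.05. Levels are CPM of the library total. limma 3.58.1 and DESeq2 1.42.0 were alternatives, and the fits were tested on simulated data. No pair of 7-month tumors was a duplicate: the smallest chi-square per gene was 37.9. Tumors of an animal are paired because they share it, and their deviations from the class means correlated at 0.05 in F1768, 0.45 in M7033 and 0.40 in M7035. An animal block was therefore fitted beside the main design. Nothing in the labels says that tumors of an animal are independent.

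The members and gene lists were chosen with earlier results of these data known, so no list or rule is independent of them. Genes named outside the cell cycle lists are the 12 largest called rises and 12 largest called falls whose mean reached 5 CPM, called members of lists among the 3 of smallest p, and a fixed panel. Per-library values of other genes are named where a library stood apart. Some genes are not reported here.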

Additional observations from a re-analysis of the deposited data

Results flagged for a closer look

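Over 96 genes in each class, 192 combinations in all, 41 had a library whose gap to its nearest neighbour was a large share of the class's range on log2(CPM + 1), by Dixon's criterion. Chance marks about 1 in 20 such groups when they are unselected and independent. Some of these genes were named because a library stood apart, and all were read in the same libraries. The 41 can therefore not be read against that share. Of the 41, 26 were in the Mki67-high class, and there it was replicate 8 each time.

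Replicate 8 stood above the other Mki67-high tumors in cell cycle genes: Mki67 at 275 CPM, Top2a at 83.7 CPM, Aurkb at 43.4 CPM, Birc5 at 97.4 CPM, Mcm5 at 55.5 CPM, Ccne1 at 12.05 CPM and Ccna2 at 85.5 CPM. It stood above them in lymphocyte and interferon-related genes: Ms4a1 at 304 CPM, Ptprc at 474 CPM, Mybl1 at 86.8 CPM, Igtp at 87.7 CPM, Ifi203 at 57.3 CPM, Gbp2 at 87.6 CPM and Irf1 at 517 CPM. The same held for Cd274 at 142 CPM, Csf1 at 122 CPM, Trp53 at 166 CPM and Trp53inp1 at 474 CPM. It stood below them in Nkx2-1 at 4.39 CPM, Epcam at 73.0 CPM, Muc1 at 81.3 CPM, Ppp1r14c at 22.2 CPM, Sdc1 at 122 CPM, Cdkn1a at 36.5 CPM, Ccnd1 at 57.1 CPM and Areg at 7.77 CPM.

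In the Mki67-low class, replicate 7, the other tumor of animal F1768, stood above the rest in Igtp at 3.16 CPM, Ifi203 at 4.32 CPM, Tor1a at 23.03 CPM, Ppid at 8.52 CPM, Mrto4 at 8.00 CPM, Rbm7 at 10.3 CPM, Vwa1 at 5.87 CPM, Cdkn1a at 621 CPM and Npm1 at 250.4 CPM. Replicate 11 stood below the rest in Meg3 at 4.32 CPM and Rian at 0.863 CPM, and replicate 23 in P2ry2 at 0.153 CPM. Replicate 3 was lowest in Tpi1 at 64.2 CPM and Gart at 24.6 CPM, and replicate 9 highest in Hnf4a at 13.4 CPM.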

How the results depend on the processing

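Against 3961 genes called outside the cell cycle lists between the classes, the count was 3096 to 4761 on leaving out each tumor in turn, and 2694 genes were called the same way in all of those fits. It moved by more than 1.5 times in 10 of 43 alternatives. The paired fit with the animal as replicate block gave 8, with 7 residual degrees of freedom against 14. Counts summed per animal gave 1255, the 6 highest against the 6 lowest 2116, the slope on Mki67 over 23 tumors with the block 483, leaving out animal F7021 2622 and leaving out M7035 1146. Of the alternatives added after the data were seen, replicate 8 left out with the letter gave 1494 and with the block 2061, the slope over 22 tumors with the letter 1198, and the slope over tumors of letter M 81. The cause was not tested. No tumor with ADC in its title is among the 16, so leaving those out gave no value.

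Of 3311 values of 77 genes under the alternatives, 2672 kept direction and call, 583 lost the call and 28 gained it. Sign changed in 10 values with a call in the main fit or the alternative, and in 18 with no call in either. Among the 10, the sign changed for Cxcl9 without replicate 8 with the block (-1.05), for Meg3 in the slope without replicate 8 with the letter (0.27) and over letter M (0.82), for Rian over letter M (0.39), for 6430411K18Rik in the same fits as Meg3 (0.58 and 0.82), for Fas over letter M (0.062), and in the slope over 23 tumors with the block for Nkx2-1 (-0.31), Sdc1 (-0.31) and Csf1 (0.044). Of 69 called genes, 36 were called the same way without replicate 8 with the letter. In the earlier tumors no gene outside the lists was called in 14 alternatives, with 553 to 1111 at an unadjusted p under 0.05. With 3 animals holding both classes, class, letter and animal are told apart only in part, and ranking by TMM-scaled Mki67 changed which tumors made up the classes.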
